A study of Danio rerio with 31 samples.

Results

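The comparison set 8 arrays of male against 8 arrays of female zebrafish (Danio rerio) from wild populations, and used 16 of the 31 arrays of a study of wild and domesticated fish. Arrays were chosen by their labels alone: every array labelled Nadia or Pargana (Pargana North in the sample titles) entered, and none was left out. All fish were sexually mature, 1 year old and labelled as controls. Telencephalon, the front of the forebrain, and midbrain were analysed apart. In each region Nadia gave 2 males (T98 and T106 in telencephalon, M98 and M106 in midbrain) and females 7 and 130, and Pargana gave males 85 and 140 and females 13 and 21, so that each region held 4 males and 4 females. Values listed below for 4 arrays of a sex follow this order, Nadia first. The domesticated populations, Scientific Hatchery and Transgenic Mosaic 1, gave 3 males and 4 females in telencephalon and 3 males and 5 females in midbrain, and were used only for comparison. The labels give each array as the RNA of 1 fish, so p-values refer to the spread between these fish, and the small number of arrays limits the precision.

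Sex in zebrafish is set by several loci and by the environment, and wild strains carry a sex-linked locus that common laboratory strains have lost. Sex hormones reach the brain from the gonads, and the fish brain also makes its own oestrogen with aromatase in radial glia. Thyroid hormone and insulin-like growth factor 1 also act on the brain, the first after local activation by a deiodinase. Forebrain and midbrain of fish hold neurons of the social behaviour network, which carry receptors for these hormones.

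The labels of region held in every wild array. EOMES, a transcription factor gene of pallial neurons, lay between 13.27 and 13.76 (log2 value) in telencephalon and between 8.29 and 9.18 in midbrain. EN1, a midbrain and hindbrain patterning gene, lay between 4.39 and 6.01 in telencephalon and between 8.95 and 10.25 in midbrain. Levels of regional genes were not alike in all fish. The neuropeptide gene oxt of the preoptic area and hypothalamus was at 8.40 in the telencephalon of Nadia female 130 and 5.53 in that of Pargana female 13, and between 12.97 and 14.02 in the other 6 telencephalon arrays. In midbrain the same 2 numbers had the highest oxt values, 13.43 and 13.18, against 8.88 to 11.63 in the others. Pargana female 21 differed from the other wild females in genes named below: its values of DIO2, of HSD17B3 and of 1 of the 2 F13A1 rows lay nearest to the males in both regions. It was kept as labelled, and values without it are given below for DIO2, IGF1, HSD17B3, 1 F13A1 row, oxt, avp, TSHR and RPS19. It was singled out after these values were seen. Larger differences of DIO2, HSD17B3 and the F13A1 row without it follow from that choice and add no support.

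No gene passed the test in either region. limma, fitted to all 15648 genes with population as a covariate, gave 0 genes with a Benjamini-Hochberg adjusted p under 0.05 in telencephalon (0% of genes, lowest adjusted p = 0.385) and 0 in midbrain (0%, lowest adjusted p = 1). At an unadjusted p under 0.05 the telencephalon gave 950 genes (6.07%), 356 higher in males and 594 higher in females, and the midbrain 387 (2.47%), 191 and 196. The excess of female-higher genes in telencephalon depended on the scaling. After every telencephalon array was shifted to the same median it was 475 higher in males and 429 higher in females. Without Pargana male 85 the telencephalon count was 1616, and without Pargana male 140 the midbrain count was 623. Every male lay above every female for 173 genes in telencephalon (1.11%) and 76 in midbrain (0.486%), and every female above every male for 369 (2.36%) and 99 (0.633%). With 4 arrays a sex some genes separate without any sex difference. That expected number was not computed, so these counts are not evidence of one. In 14 genes (0.0895%) the sexes were apart in both regions in the same direction. Arrays of the same number may come from 1 fish, so the regions may not be independent. Differences of at least 2-fold were reached by 165 of 15648 genes in telencephalon and 107 of 15648 in midbrain. The sexes did not overlap in 27 and 8 of these. A large mean difference makes a lack of overlap likelier, so these 2 counts add no support either. The arrays measured whole pieces of tissue, in which fewer cells of a type and less RNA per cell cannot be told apart. The median standard error of a difference was 0.20 (log2) in telencephalon and 0.18 in midbrain. All differences below are male minus female on the log2 scale with their standard error (SE), from 4 males and 4 females in each region, and none has an adjusted p under 0.05 in its region unless this is stated. The genes named for a region or for both regions were picked by their test results on these same arrays. Their lack of overlap is partly fixed by that choice and adds no support.

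The thyroid hormone gene DIO2 and the growth factor gene IGF1 were among the 8 genes named for higher values in males of both regions. DIO2 encodes the type 2 deiodinase, which turns thyroxine into the active hormone triiodothyronine, and lies on chromosome 17 of the RefSeq assembly GRCz12tu. In telencephalon its log2 values were 11.78, 11.04, 11.50 and 11.83 in the males and 9.38, 9.69, 9.09 and 10.79 in the females. No female reached the lowest male, and the value nearest to it, 10.79, was that of Pargana female 21. In midbrain the males were at 12.34, 12.14, 12.21 and 11.62 and the females at 10.64, 10.40, 9.85 and 11.66. Here female 21 lay just above the lowest male, Pargana male 140, and the other 3 females lay below all males. The difference was 1.80 (SE 0.36, adjusted p = 0.799) in telencephalon and 1.44 (SE 0.37, adjusted p = 1) in midbrain. Without female 21 it was 2.16 (SE 0.26, adjusted p = 0.400) and 1.85 (SE 0.20, adjusted p = 0.540).

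IGF1, on chromosome 4 of the same assembly, encodes insulin-like growth factor 1, a peptide that promotes growth and neuronal survival. Its telencephalon values were 9.50, 9.27, 9.01 and 9.28 in the males and 8.56, 8.19, 7.54 and 8.37 in the females. Its midbrain values were 9.95, 10.48, 10.31 and 9.90 in the males and 9.52, 9.20, 9.38 and 9.89 in the females. The sexes did not overlap in either region, although female 21, at 9.89, lay next to the lowest male, at 9.90, in midbrain. The difference was 1.096 (SE 0.21, adjusted p = 0.799) in telencephalon and 0.67 (SE 0.20, adjusted p = 1) in midbrain, and without female 21 it was 1.24 (SE 0.21) and 0.81 (SE 0.20).

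F13A1 encodes the A chain of coagulation factor XIII, a transglutaminase that cross-links fibrin, and is also made by macrophages in mammals. Of 2 rows with this name, ENSDARG00000045453 was lower in males by -1.27 (SE 0.34, adjusted p = 0.799) in telencephalon and -1.61 (SE 0.50, adjusted p = 1) in midbrain. In telencephalon the males were at 7.60, 7.19, 6.91 and 7.04 and the females at 9.34, 8.02, 8.82 and 7.63, with no overlap. In midbrain the males were at 6.13, 7.90, 7.14 and 7.14 and the females at 9.82, 9.06, 8.46 and 7.39, where female 21 fell among the males. Without female 21 the differences of this row were -1.51 (SE 0.34) and -1.985 (SE 0.47). The second row, ENSDARG00000094832, differed by -0.96 (SE 0.33, adjusted p = 0.799) and -1.30 (SE 0.30, adjusted p = 1), and its midbrain values did not overlap between the sexes. The rows may share signal, and the probes behind them were not used here.

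**Figure D1:**
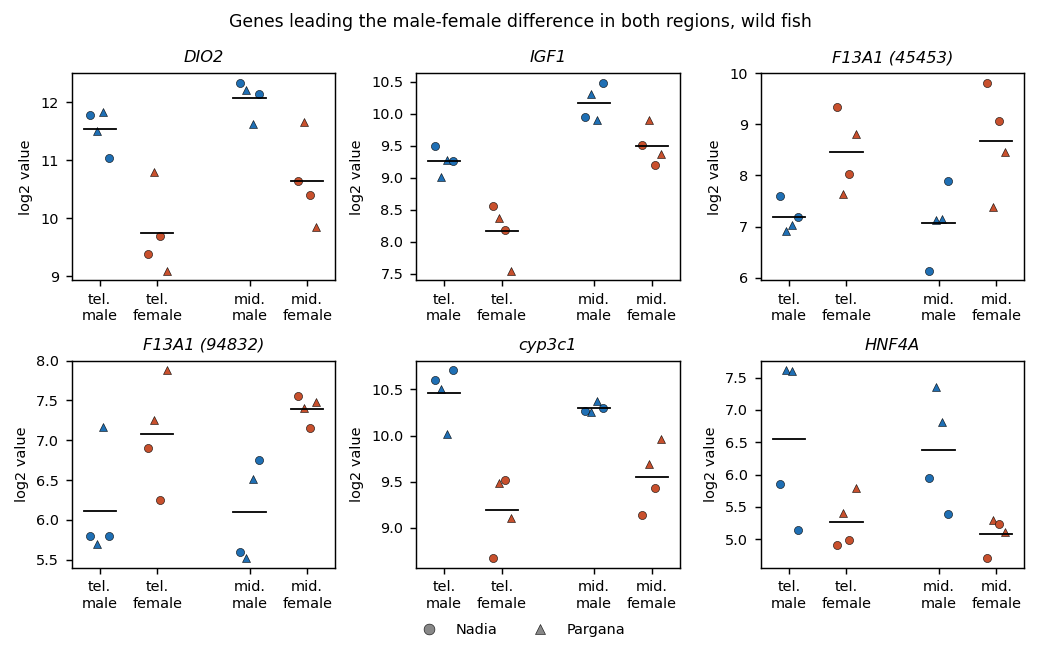
Log2 values of 6 gene rows in the wild fish (vertical axis), by region (tel., telencephalon; mid., midbrain) and sex on the horizontal axis, with circles for Nadia, triangles for Pargana, blue for males, orange for females and a bar at the mean of 4 arrays. DIO2 males sat between 11.04 and 12.34 over both regions, the highest female triangle being Pargana female 21, and the HNF4A males of Pargana stood above those of Nadia.

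cyp3c1 and HNF4A ranked first of these male-higher genes over both regions. cyp3c1, a gene of the cytochrome P450 family 3 on chromosome 3, was at 10.60, 10.71, 10.50 and 10.02 in telencephalon of the males and at 8.67, 9.52, 9.10 and 9.49 in that of the females. In midbrain the males were close together, at 10.27, 10.30, 10.25 and 10.38, and the females lay at 9.13, 9.43, 9.96 and 9.69. The sexes did not overlap in either region, and the difference was 1.26 (SE 0.24, adjusted p = 0.799) in telencephalon and 0.75 (SE 0.16, adjusted p = 1) in midbrain. HNF4A, on chromosome 23, encodes a nuclear receptor known from liver and gut. Its difference of 1.28 (SE 0.32, adjusted p = 0.799) in telencephalon and 1.29 (SE 0.29, adjusted p = 1) in midbrain was unequal between populations, 2.01 and 1.87 in Pargana against 0.54 and 0.70 in Nadia, which was not past the threshold as a difference between populations (adjusted p = 0.434 and 1).

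The other 4 genes named for higher values in males of both regions were CUTC, prf1.9, gucy2f and nccrp1. CUTC, a gene of copper homeostasis, differed by 0.77 (SE 0.19) in telencephalon and 0.67 (SE 0.21) in midbrain with no overlap in either. prf1.9, of the perforin family of pore-forming proteins, differed by 0.98 (SE 0.32) and 1.16 (SE 0.26), and nccrp1, a receptor gene named from cytotoxic cells of fish, by 0.93 (SE 0.33) and 0.89 (SE 0.30), each with overlap in both regions. The telencephalon difference of nccrp1 was 0.62 without Pargana male 140. gucy2f, a guanylate cyclase gene of photoreceptors, had the largest mean difference of these genes, 2.12 (SE 0.71) and 2.21 (SE 0.56), and was larger in Pargana. The 2 Pargana males were at 9.75 and 8.453 in telencephalon and 9.24 and 9.01 in midbrain, while Nadia males were at 4.54 and 5.62 and at 6.99 and 5.08. Females lay between 4.47 and 5.24 in telencephalon and between 4.85 and 6.42 in midbrain.

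The 8 rows named for higher values in females of both regions came from skeletal muscle, junctions, carotenoid metabolism and other functions, besides F13A1. bco2l, a carotenoid-cleaving oxygenase gene, was the one of them whose sexes were apart in both regions, with -0.91 (SE 0.26) in telencephalon and -0.89 (SE 0.23) in midbrain. Its males were at 7.53, 8.02, 7.88 and 7.15 in telencephalon and its females at 8.61, 8.04, 8.99 and 8.56, so that the lowest female lay next to the highest male. PKD2L1, a channel gene of neurons that contact the cerebrospinal fluid, differed by -0.81 (SE 0.28) in telencephalon and by -1.25 (SE 0.24) in midbrain, where the males lay at 5.43, 5.40, 5.13 and 6.22 and the females at 7.07, 6.70, 6.63 and 6.75 with no overlap. The muscle genes myhb, a myosin heavy chain, and tnnc2.1, a fast troponin C, differed by -0.98 (SE 0.25) and -1.04 (SE 0.22) in telencephalon and by -1.09 (SE 0.33) and -0.85 (SE 0.28) in midbrain, with overlap in each. SUPV3L1, a mitochondrial RNA helicase gene, differed by -0.57 (SE 0.16) and -0.43 (SE 0.14), and sp100.4, named for a nuclear body protein, by -1.69 (SE 0.56) and -0.61 (SE 0.20). The sexes did not overlap in telencephalon for SUPV3L1 and in midbrain for sp100.4. Without Pargana male 140, at 5.577 where the other males lay between 7.002 and 8.489, the telencephalon difference of sp100.4 was -1.05. Of 2 rows for the tricellular junction gene MARVELD2, ENSDARG00000061651 differed by -1.73 (SE 0.40) and -1.19 (SE 0.39), while ENSDARG00000025076 differed by -1.33 (SE 0.45) in telencephalon and by -0.13 (SE 0.19) in midbrain. The first of these rows also differed more in Pargana (-2.72 and -2.03) than in Nadia (-0.73 and -0.35).

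In telencephalon fuz had the smallest p of the genes higher in males, and hbl1 and gig2n those of the genes higher in females; these 3 shared the lowest adjusted p of 0.385. fuz encodes the planar cell polarity effector Fuzzy, needed to build cilia. The males were at 8.04, 8.454, 7.68 and 7.93 and the females at 6.32, 7.12, 6.31 and 5.94, without overlap, a difference of 1.60 (SE 0.21). gig2n belongs to a family of genes that fish induce in virus infection. Its males lay at 5.50, 4.93, 5.58 and 4.55 and its females close together at 7.03, 7.17, 6.87 and 7.05, a difference of -1.89 (SE 0.24) that was -1.89 in each population. hbl1, a sugar-binding lectin gene of innate defence, was at 4.47, 4.93, 5.60 and 5.47 in males and 6.06, 6.01, 6.51 and 6.73 in females, a difference of -1.21 (SE 0.15). In midbrain the sexes overlapped in all 3 of these genes.

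Besides fuz, DIO2, IGF1 and cyp3c1, the male-higher genes named for telencephalon differed by 0.62 to 1.06. They included EFCAB11, named for EF-hand domains (1.06, SE 0.18), the paraoxonase gene pon1 (1.01, SE 0.19), DESI1, which encodes a SUMO-removing protease (0.97, SE 0.21), the SoxB1 transcription factor gene sox19a (0.86, SE 0.18) and the zinc finger gene sall2 (0.62, SE 0.14). The sexes did not overlap in any of these 5, a trait that the choice by smallest p favours. Over all telencephalon genes 1.11% had every male above every female. SMIM14, a small membrane protein gene, also had no overlap (0.62, SE 0.12), whereas DRAM2, a lysosomal gene of autophagy (0.65, SE 0.14), and glipr1b (0.75, SE 0.17) had some.

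The 12 genes named for higher values in females of the telencephalon had no adjusted p under 0.05. The complement gene c7b was at 8.29, 8.15, 8.74 and 8.52 in males and 9.24, 8.81, 9.32 and 9.35 in females (-0.75, SE 0.15). nlrp12l, of the intracellular NLR receptor family, differed by -0.78 (SE 0.15), and il13ra2, the decoy receptor for interleukin 13, by -0.83 (SE 0.18). rasl11a, a small GTPase gene, was at 7.88, 7.62, 8.23 and 8.13 in males and 8.32, 8.53, 9.27 and 9.14 in females (-0.85, SE 0.15), with no overlap. The kinesin gene kif26bb (-0.96, SE 0.19) and TMC2, a gene of the hair cell transduction channel (-1.39, SE 0.28), had no overlap, and sult1st5, a sulfotransferase (-0.999, SE 0.20), prom2, a membrane protrusion protein (-1.19, SE 0.24), and trim16 (-1.25, SE 0.27) had some. Each of these had an adjusted p of 0.799.

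**Figure D2:**
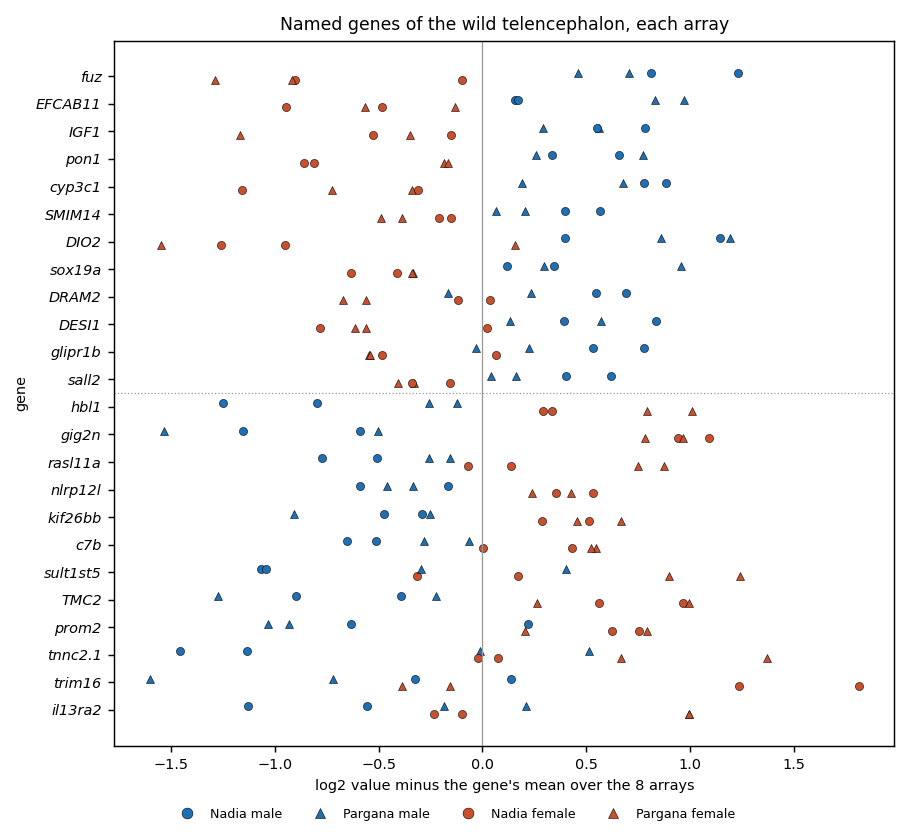
Each wild telencephalon array's log2 value minus the mean of the 8 arrays (horizontal axis) for the 24 genes named by smallest p (vertical axis), 12 higher in males above the dotted line and 12 higher in females below it, with circles for Nadia and triangles for Pargana, blue for males and orange for females. For fuz and gig2n all 4 males lie on one side of all 4 females, and for DIO2 the female nearest to the males is a Pargana triangle, female 21.

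In midbrain the smallest p of the male-higher genes was that of SPTB, which encodes the beta spectrin of red blood cells. Its males were at 8.79, 8.89, 9.05 and 9.09 and its females at 8.30, 8.30, 8.17 and 8.48, with no overlap and a difference of 0.64 (SE 0.12, adjusted p = 1). mhc1lca, an MHC class I gene of the fish L lineage, was at 6.18, 6.64, 6.43 and 6.83 in males and 4.47, 5.40, 5.61 and 5.83 in females (1.19, SE 0.25). PTGS2, the inducible cyclooxygenase of prostaglandin synthesis, was at 9.57, 9.90, 10.44 and 10.29 in males and 9.12, 9.36, 8.73 and 8.77 in females (1.06, SE 0.24). The downstream prostaglandin E synthase gene PTGES went the other way. It was at 8.69, 8.25, 8.56 and 8.77 in males and 9.09, 9.05, 9.20 and 9.23 in females (-0.58, SE 0.13). Both prostaglandin genes separated the sexes in midbrain, and both had an adjusted p of 1.

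The remaining male-higher genes of the midbrain differed by 0.58 to 0.95. CCDC90B, a mitochondrial protein gene (0.67, SE 0.14), the zinc transporter gene slc39a1 (0.58, SE 0.13) and ctrb.1, the pancreatic protease chymotrypsinogen (0.73, SE 0.16, with log2 values of 4.94 to 6.15), had no overlap. TDRD6, a gene of germ cell granules (0.95, SE 0.23), and RFESD, an iron-sulphur protein gene (0.87, SE 0.22), overlapped. Among the female-higher genes CYB5D2, a heme-binding protein gene, had the smallest p, with males at 10.86, 10.68, 11.03 and 10.93 and females at 11.32, 11.42, 11.65 and 11.80 (-0.67, SE 0.12). ppp1r14ab, an inhibitor of myosin phosphatase, had a larger difference, with males at 9.41, 8.17, 8.51 and 7.72 and females at 9.85, 9.93, 9.94 and 9.49 (-1.35, SE 0.31). Neither overlapped between the sexes.

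Further female-higher genes of the midbrain were aste1a (-1.07, SE 0.25), RBP2, a retinol-binding protein (-0.75, SE 0.18), the egg coat gene zpcx (-0.69, SE 0.15), pm20d1.2, an N-acyl amino acid enzyme (-0.65, SE 0.14), and the surfactant protein gene sftpbb (-0.62, SE 0.15). The sexes were apart in all 5, a trait that the choice by smallest p favours. Over all midbrain genes 0.633% had every female above every male. CALCOCO1, a coiled-coil coactivator and autophagy receptor gene (-0.81, SE 0.16), and the chemokine gene ccl38a.5 (-1.26, SE 0.27) had overlap. All these genes had an adjusted p of 1. Several symbols named for a region stand on a second row too, with these differences. PTGS2 (ENSDARG00000010276) was at 0.42 (SE 0.41), RFESD (ENSDARG00000042159) at -0.02 (SE 0.22), RBP2 (ENSDARG00000093774) at -0.49 (SE 0.28) and CALCOCO1 (ENSDARG00000036695) at 0.08 (SE 0.18) in midbrain, and DRAM2 (ENSDARG00000043569) at -0.54 (SE 0.51) and TMC2 (ENSDARG00000033104) at -0.13 (SE 0.19) in telencephalon.

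**Figure D3:**
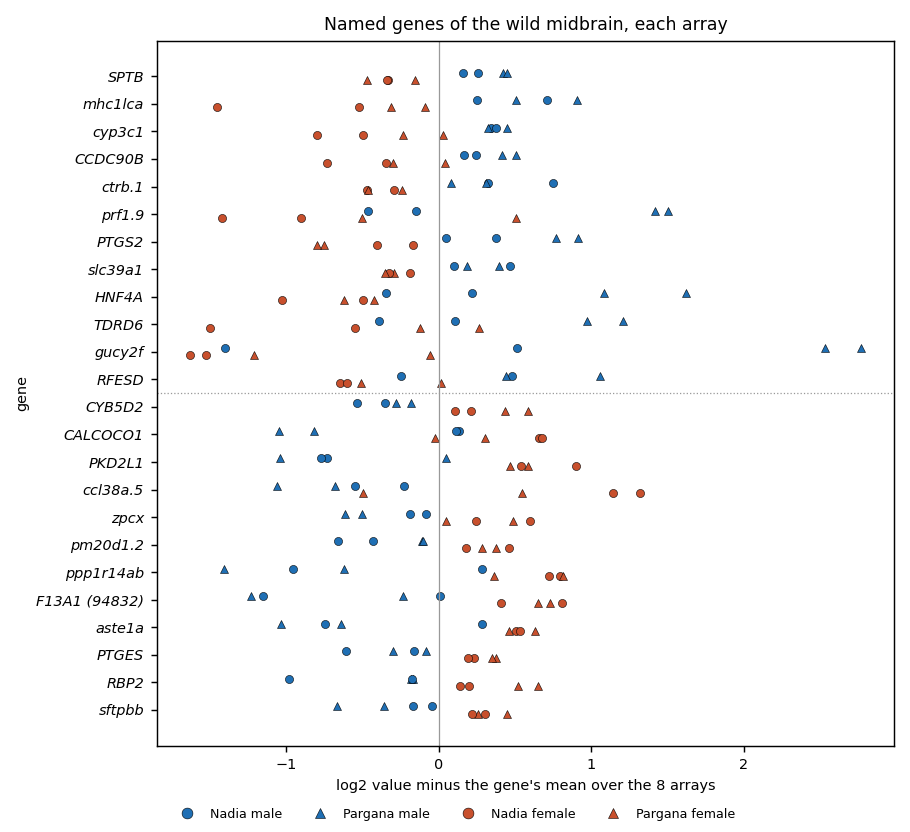
Each wild midbrain array's log2 value minus the mean of the 8 arrays (horizontal axis) for the 24 rows named by smallest p (vertical axis), 12 higher in males above the dotted line and 12 higher in females below it, with symbols as in the plot for telencephalon. The males of SPTB and of cyp3c1 all lie right of the females, while the male-higher mean of gucy2f comes from the 2 Pargana males at 9.24 and 9.01 log2 and a Nadia male at 6.99.

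Genes of sex hormone synthesis and action were the first group of interest in a comparison of the sexes. Of 22 genes of the steroid list 0 passed, and 2 (9.09%) in telencephalon and 0 in midbrain had an unadjusted p under 0.05, against 6.07% and 2.47% of all genes. One of the 2, HSD17B3, is the 17-beta-hydroxysteroid dehydrogenase gene that makes testosterone in mammals. Its telencephalon values were 11.65, 11.90, 11.69 and 11.52 in the males and 9.94, 9.96, 9.59 and 11.28 in the females, 11.28 being that of female 21. No overlap was seen, and the difference was 1.49 (SE 0.35, adjusted p = 0.799). Without female 21, a fit chosen after its value was seen, it was 1.90 (SE 0.16, adjusted p = 0.0958 in limma), the lowest adjusted p of that fit. Leaving out Pargana male 85 instead gave a lowest adjusted p of 0.0984 over all genes in limma. In midbrain the HSD17B3 difference was 0.66 (SE 0.31, adjusted p = 1), with overlap, and 0.96 (SE 0.24, adjusted p = 1) without female 21. The other was CYP17A1, the 17-alpha-hydroxylase gene of androgen synthesis, with -0.65 (SE 0.17, adjusted p = 0.799) in telencephalon and -0.36 (SE 0.18) in midbrain.

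The aromatase row and the oestrogen receptor genes differed by no more than 0.41. The row named CYP19A1, which RefSeq lists as a synonym of the ovarian aromatase gene cyp19a1a, differed by -0.41 (SE 0.26) in telencephalon and -0.18 (SE 0.31) in midbrain. The brain aromatase gene cyp19a1b and the vitellogenin gene vtg1 were not analysed here. The oestrogen receptor gene ESR1 differed by -0.26 (SE 0.47) and -0.10 (SE 0.18). Of 2 rows with the symbol ESR2, the second oestrogen receptor, ENSDARG00000016454 differed by -0.12 (SE 0.52) and -0.23 (SE 0.18). ENSDARG00000034181 differed by 0.09 (SE 0.41) and 0.25 (SE 0.15). The genes sought were esr2a and esr2b, so the 2 rows may be different genes. The signs of ESR1 and ESR2 turned with the arrays used.

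Genes of gonadal sex held 0 members past the threshold. The testis genes amh and DMRT1 differed by 0.10 (SE 0.35) and -0.23 (SE 0.18) in telencephalon and by -0.10 (SE 0.17) and 0.04 (SE 0.19) in midbrain, each with overlap. Of 20 sex determination genes 0 passed in either region. Only 1 had an unadjusted p under 0.05, the ovarian factor gene FOXL2 in midbrain (-0.54, SE 0.20), 5% of the list against 2.47% of all genes. Of 22 germ cell and gonad genes 0 passed, and 1 (4.55%) in each region had an unadjusted p under 0.05. The shares over all genes were 6.07% in telencephalon and 2.47% in midbrain. The members were ZAR1, an egg gene, in telencephalon (0.67, SE 0.27) and zpcx in midbrain. None of 13 oestrogen-induced liver genes, the vitellogenins among them, passed or had an unadjusted p under 0.05 in either region.

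The thyroid hormone and growth factor genes around DIO2 and IGF1 held 0 members past the threshold. These 2 lists were drawn up after the values of DIO2 and IGF1 were known. Of 15 rows of the thyroid axis 0 passed in either region, and their median difference was -0.18 in telencephalon and -0.06 in midbrain, against -0.0322 and 0.0038 over all genes. In telencephalon DIO2, higher in males, and TSHR, higher in females, had an unadjusted p under 0.05 (13.3%, against 6.07% of all genes). In midbrain only DIO2 had (6.67%, against 2.47% of all genes). The receptor rows were THRA (-0.44, SE 0.21, and 0.06, SE 0.16, in telencephalon) and THRB (-0.12, SE 0.18), and the thyrotropin receptor gene TSHR had a difference of -0.92 (SE 0.38, adjusted p = 0.799), which was -0.59 without Pargana female 21, the highest array. KLF9, a gene that thyroid hormone induces in many vertebrates, was at -0.90 (SE 0.53) in telencephalon and -0.79 (SE 0.58) in midbrain. Of 20 rows of the growth factor system 0 passed, with a median of -0.03 in each region. In telencephalon 2 rows higher in males, IGF1 among them, and 2 higher in females had an unadjusted p under 0.05 (20%, against 6.07% of all genes). In midbrain IGF1, higher in males, and ghra, higher in females (-0.47, SE 0.20), had one (10%, against 2.47% of all genes). igf2b (-0.47, SE 0.14) and 1 of 2 rows of the receptor gene IGF1R (-0.45, SE 0.17) lay on the female side in telencephalon, and IRS1, the first substrate of that receptor, on the male side (0.58, SE 0.21).

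Genes of the immune system with a small p lay mostly on the female side in telencephalon. Of 37 MHC and interferon genes 0 passed, and 9 (24.3%) had an unadjusted p under 0.05, 2 higher in males and 7 in females, with a list median of -0.19. Over all genes the share was 6.07%, with 356 higher in males and 594 in females, and the median was -0.0322. That excess of female-higher genes depended on the scaling, and the list counts were not redone after rescaling. The class I gene mhc1zaa was at 7.91, 7.67, 6.90 and 7.90 in males and 9.15, 9.10, 8.57 and 7.96 in females (-1.10, SE 0.26). The class II regulator gene ciita (-0.73, SE 0.20) and the invariant chain gene cd74a (-0.52, SE 0.17) were on the same side. In midbrain 1 of the 37 (2.7%, against 2.47% of all genes) had an unadjusted p under 0.05, and the list median was -0.15.

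Markers of microglia and leukocytes had differences of both signs in telencephalon, positive in 9 of 23 genes, against 44.3% of all genes. Of these 23 genes 4 (17.4%, against 6.07% of all genes) had an unadjusted p under 0.05 in telencephalon, all higher in females. None passed, and the median was -0.16. CORO1A, an actin regulator of leukocytes, was at 6.48, 6.45, 7.03 and 6.58 in males and 7.28, 7.90, 7.15 and 7.51 in females (-0.83, SE 0.22). The macrophage genes MPEG1 (row ENSDARG00000043093, -0.87, SE 0.25; the row ENSDARG00000055290 was at -0.12, SE 0.32) and marco (-0.79, SE 0.30) and the T cell gene cd4-1 (-0.43, SE 0.17) were the others. The summed level of the list, as each array's mean distance from the mean of its region, ran from -0.22 to 0.24 in males and from -0.06 to 0.25 in females, with Pargana male 140 highest of the males. The part of these markers in the MHC and defence genes was not tested. In midbrain 0 of the 23 had an unadjusted p under 0.05.

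Red blood cell genes were the list with the largest share in midbrain. Of 11 genes 4 (36.4%) had an unadjusted p under 0.05, all higher in males, against 2.47% of all genes, with a median of 0.38 and 0 past the adjusted threshold. Besides SPTB these were alas2, the first enzyme of heme synthesis in red cells (0.67, SE 0.25), RHAG, a red cell membrane gene (0.71, SE 0.27), and klf1, their transcription factor (0.38, SE 0.16). The summed level was -0.16, -0.01, 0.23 and 0.59 in males and -0.32, -0.25, -0.29 and 0.22 in females, so the 2 numbers with the highest levels were Pargana male 140 and Pargana male 85, followed by Pargana female 21. How much blood each sample held was not tested. In telencephalon 2 of the 11 (18.2%, against 6.07% of all genes) had an unadjusted p under 0.05 and were higher in females, epb41b (-1.002, SE 0.30) and gata1a (-0.51, SE 0.20).

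Immediate early and chaperone genes held 0 members past the threshold in either region. Over all genes the share with an unadjusted p under 0.05 was 6.07% in telencephalon and 2.47% in midbrain. Of 25 immediate early genes, which neurons switch on within minutes of activity, 3 (12%) in each region had an unadjusted p under 0.05, all higher in females. In midbrain egr1 was at 12.24, 11.84, 11.83 and 12.07 in males and 12.53, 12.44, 12.64 and 12.47 in females (-0.53, SE 0.14), and egr2a (-0.39, SE 0.15) also had no overlap. The third was klf2a (-0.43, SE 0.14). In telencephalon they were egr4 (-0.51, SE 0.20), NPAS4 (-0.46, SE 0.18) and KLF6 (-0.32, SE 0.13), and the sexes were apart for 1 gene higher in males and 1 higher in females. The sexes were thus apart in 8% of this list in each region. Over all genes every male lay above every female for 1.11% in telencephalon and 0.486% in midbrain. Every female lay above every male for 2.36% and 0.633%. Of 24 chaperone genes 3 (12.5%) were at an unadjusted p under 0.05 in midbrain, all higher in females, with dnajb1b at -0.42 (SE 0.15), SERPINH1 at -0.54 (SE 0.20) and hsp90aa1.1 at -1.33 (SE 0.55). The last rested on Nadia female 130, at 9.32, where the other 7 arrays lay between 4.93 and 7.19. In telencephalon 2 of the 24 (8.33%) had an unadjusted p under 0.05, 1 higher in males and 1 higher in females. Of 23 stress axis genes none had an unadjusted p under 0.05 in either region.

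Genes of the diencephalon, hypothalamus and habenula had mostly positive differences in telencephalon. Of these 25 genes 23 had a positive difference there, against 44.3% of all genes. Of the 25, 3 (12%, against 6.07% of all genes) had an unadjusted p under 0.05, 0 passed, and the median was 0.56. The summed level was 0.41, 0.91, 0.39 and -0.33 in males and 0.17, -1.05, -0.81 and 0.32 in females, so that Nadia female 130, Pargana female 13 and Pargana male 140 were low. The oxt difference of 2.99 (SE 1.79) and the avp difference of 1.60 (SE 1.17) were 4.499 and 2.465 without Pargana female 21. In midbrain both went the other way without female 21, at -2.126 (SE 0.949) for oxt and -1.19 (SE 0.478) for avp. The telencephalon difference of oxt rested on the low values of females 130 and 13. Female 21 had a high oxt value there like the males, so leaving it out had to raise that difference. Neither gene was fitted without females 130 and 13. Of 29 neuropeptide genes 19 had a positive difference in telencephalon, against 44.3% of all genes. An unadjusted p under 0.05 was seen for 3 (10.3%, against 6.07% of all genes), all higher in males. They were the appetite gene agrp (0.76, SE 0.30), npb (0.49, SE 0.21) and CCK (1.87, SE 0.81). With the diencephalic level as a covariate, a setting chosen after seeing the data, 0 genes passed and 1024 had an unadjusted p under 0.05. In that limma fit DIO2 differed by 1.63 and IGF1 by 0.945 in telencephalon (adjusted p = 0.746 for each). fuz differed by 1.85 (adjusted p = 0.572) and gig2n by -1.97 (adjusted p = 0.669). The level was taken from the same arrays, and its part in these differences was not tested.

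The other lists held 0 genes past the threshold in either region. For comparison, 6.07% of all genes in telencephalon and 2.47% in midbrain had an unadjusted p under 0.05. The telencephalic, midbrain, cerebellar and olfactory lists gave 2.94%, 0%, 9.09% and 9.09% at an unadjusted p under 0.05 in telencephalon and 2.94%, 0%, 0% and 9.09% in midbrain. The pituitary list gave 2 of 11 (18.2%) in telencephalon, smtlb (-1.36, SE 0.42) and fshb (-0.44, SE 0.18), both higher in females. The retina list and the oxidative phosphorylation, serotonin, cell cycle and reproductive axis lists gave 0 in both regions. The ribosomal list gave 1 of 51 (1.96%) in each, RPS19. It differed by 0.99 (SE 0.34) in telencephalon and 0.51 (SE 0.20) in midbrain, the latter 0.32 without Pargana female 21. Vessel and meninges genes gave 1 of 31 (3.23%) in telencephalon and 3 of 31 (9.68%) in midbrain. The nonapeptide list, which holds oxt and avp, gave 1 of 10 (10%) in each region, higher in males in telencephalon and higher in females in midbrain. The telencephalon member was neither oxt nor avp. Oligodendrocyte, radial glia, circadian, catecholamine, glutamate and GABA genes gave between 0 and 2 members in a region (0% to 8.33% of a list).

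The sex difference was tested between the regions, without pairing arrays of the same number. limma gave 0 genes (0%) with an adjusted p under 0.05 for telencephalon minus midbrain, and 315 genes (2.01%) had an unadjusted p under 0.05. The difference was 0.36 (SE 0.56) for DIO2, 0.43 (SE 0.30) for IGF1 and 0.52 (SE 0.30) for cyp3c1, each with an adjusted p of 1. For HSD17B3 it was 0.83 (SE 0.50). A missed threshold does not show that the regions had equal sex differences.

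The sex difference differed between Nadia and Pargana for 3 genes in telencephalon (0.0192%) and 4 in midbrain (0.0256%), in limma with an adjusted p under 0.05 and 2 males and 2 females in each population. UBE2G1, a ubiquitin-conjugating enzyme gene, was low in Pargana males. They were at 6.15 and 6.04 in telencephalon and at 5.77 and 5.58 in midbrain, and all other arrays of the study, domesticated ones included, lay between 12.11 and 13.77. The male-minus-female difference was larger in Nadia than in Pargana by 7.03 (SE 0.44, adjusted p = 0.0183) in telencephalon and by 6.67 (SE 0.26, adjusted p = 0.00071) in midbrain.

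ppt2a.1 and ppt2a.5, paralogous palmitoyl-protein thioesterase genes, were high in Pargana females. ppt2a.1 was at 10.59 and 10.31 in their telencephalon and at 10.71 and 10.95 in their midbrain, and between 4.72 and 6.08 in all other wild arrays. Nadia minus Pargana was 5.14 (SE 0.44, adjusted p = 0.0483) in telencephalon and 5.64 (SE 0.50, adjusted p = 0.0405) in midbrain. ppt2a.5 was at 11.07 and 11.46 in midbrain of the Pargana females, against 4.71 to 5.93 in the other wild midbrain arrays (5.84, SE 0.47, adjusted p = 0.0399). High and low values of both genes also occurred among domesticated fish of 1 population and 1 sex. The Scientific Hatchery females were at 4.77, 10.61 and 9.97 for ppt2a.1 in midbrain and at 4.55, 11.03 and 10.50 for ppt2a.5. The 2 paralogs are similar and may share signal.

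DPT, which encodes the extracellular matrix protein dermatopontin, was high in Nadia females. They were at 8.66 and 8.88 in telencephalon and at 7.28 and 7.84 in midbrain, and all other arrays of the study lay between 4.61 and 5.30. Nadia minus Pargana was -3.93 (SE 0.31, adjusted p = 0.0398) in telencephalon. zgc:154125, which has only a clone name and so falls outside the naming rule, was at 5.94 and 5.996 in midbrain of Nadia males and between 7.61 and 8.61 in the other wild midbrain arrays (-3.20, SE 0.27, adjusted p = 0.0399, and 0.0928 with trend and robust moderation). In Scientific Hatchery midbrain it was low in both sexes, from 6.18 to 7.07. Each of these patterns stands on 2 fish of 1 sex in 1 population.

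**Figure D4:**
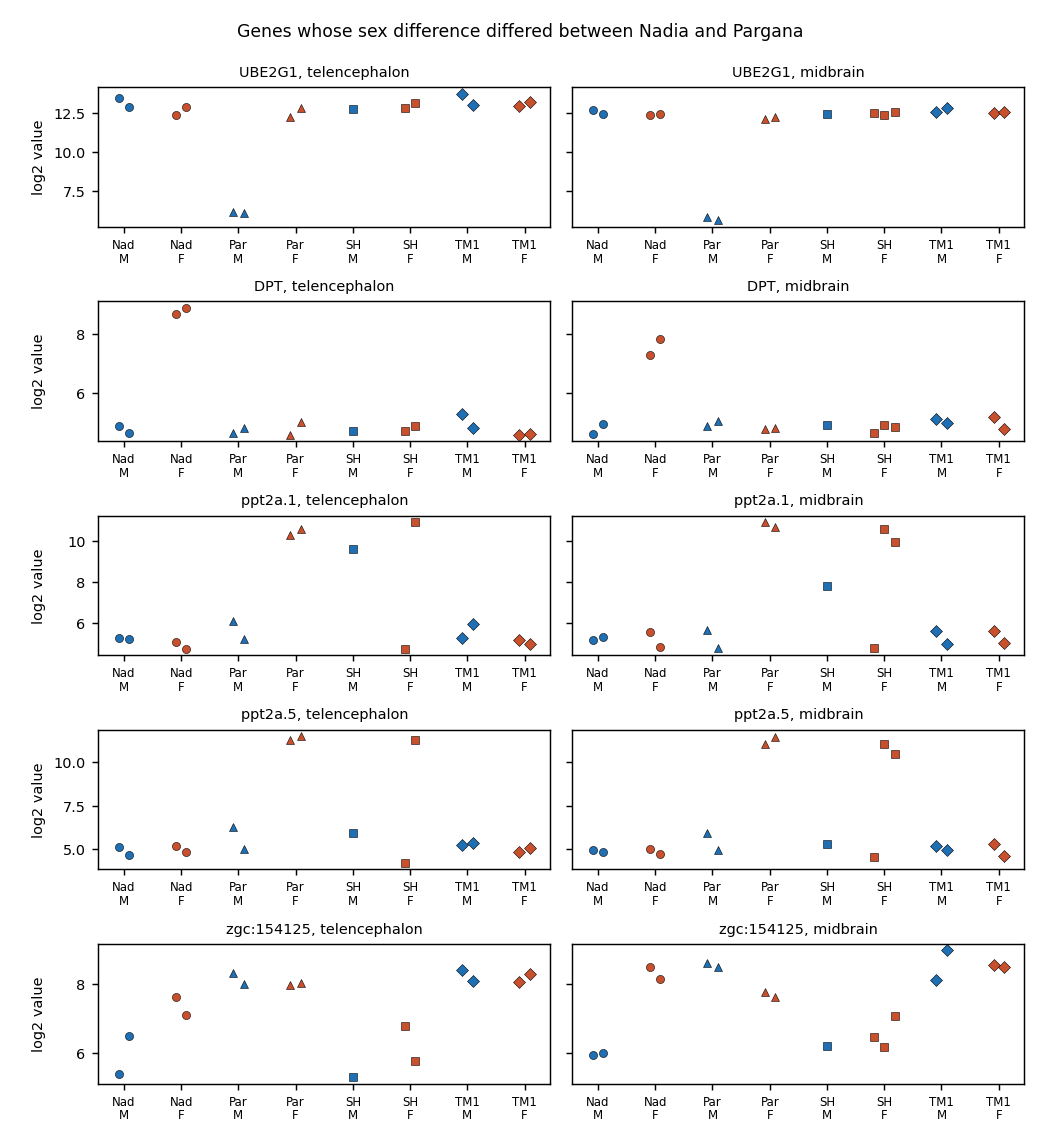
Log2 values (vertical axis) of the 5 genes whose sex difference differed between Nadia and Pargana in a region, by population (Nad, Nadia; Par, Pargana; SH, Scientific Hatchery; TM1, Transgenic Mosaic 1) and sex (M, blue; F, orange) on the horizontal axis, with each point 1 array of telencephalon (left) or midbrain (right). UBE2G1 is low in the 2 Pargana males at 5.58 to 6.15, and DPT is high in the 2 Nadia females at 7.28 to 8.88.

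The domesticated fish gave a separate set of arrays for the same contrast. By the same test 0 genes passed in their telencephalon (0%) and 1 in their midbrain (0.00639%), while 859 (5.49%) and 1311 (8.38%) had an unadjusted p under 0.05. The 1 gene was DIO2. Its domesticated midbrain values were 12.28 to 12.46 in males and 10.38 to 10.64 in females, and male minus female was 1.89 (SE 0.10, adjusted p = 0.00228), in telencephalon 1.92 (SE 0.22). IGF1 differed by 1.57 (SE 0.50) in domesticated telencephalon and 1.23 (SE 0.16) in midbrain, HSD17B3 by 1.08 (SE 0.18) and 0.32 (SE 0.11). The F13A1 row ENSDARG00000045453 differed by -3.51 (SE 0.48) and -2.62 (SE 0.49). These 4 genes had the direction of the wild fish in both regions.

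cyp3c1 and HNF4A did not have it. cyp3c1 differed by -0.09 (SE 0.20) in domesticated telencephalon and -0.33 (SE 0.17) in midbrain, and HNF4A by -0.91 (SE 0.26) and -0.44 (SE 0.19). Wild minus domesticated was 1.35 (SE 0.33) and 1.08 (SE 0.24) for cyp3c1 and 2.19 (SE 0.45) and 1.73 (SE 0.37) for HNF4A. Over all genes, limma gave 0 in telencephalon (0%, lowest adjusted p = 0.153, that of rasl11a) and 0 in midbrain (0%, lowest adjusted p = 0.338) for wild minus domesticated, with 671 and 678 genes at an unadjusted p under 0.05. rasl11a had -0.85 in wild and 0.47 in domesticated telencephalon, a difference of -1.32 (SE 0.20).

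Of the 12 male-higher genes of the wild telencephalon 9 had the same sign in domesticated telencephalon, 3 of these with an unadjusted p under 0.05, and of the 12 female-higher genes 3 had the same sign. In midbrain 7 of 12 male-higher and 5 of 12 female-higher genes had the same sign. Over all genes the share was 56.3% in telencephalon and 53.7% in midbrain, and over those with an unadjusted p under 0.05 in wild fish 61.3% and 57.1%. gig2n and hbl1, which led the female-higher genes of the wild telencephalon, differed by 0.24 (SE 0.56) and -0.11 (SE 0.39) in the domesticated one, and fuz by 0.86 (SE 0.34).

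**Figure D5:**
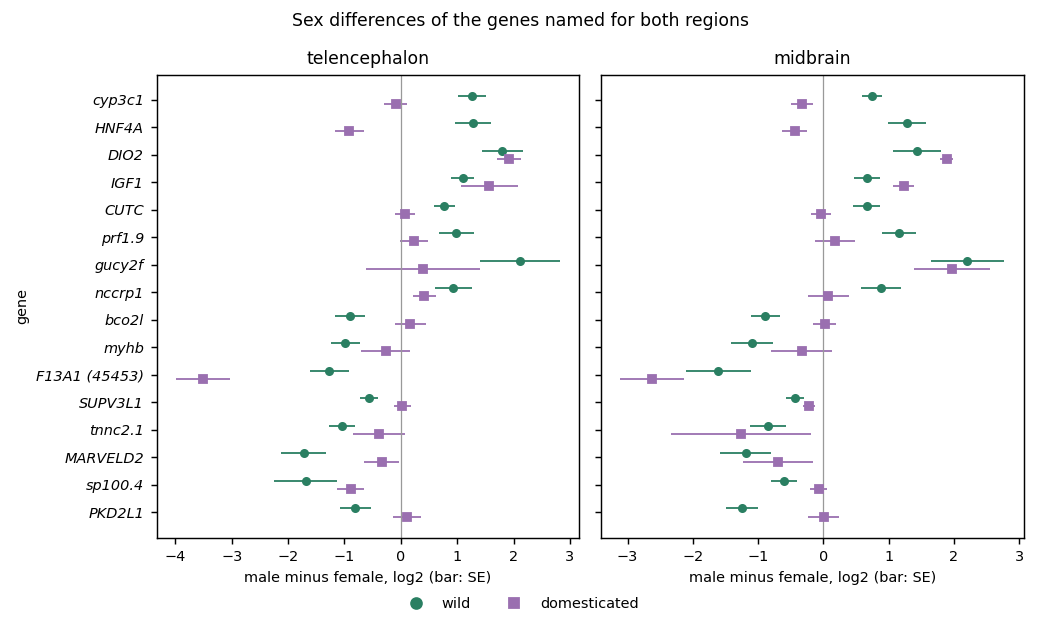
Male minus female on the log2 scale (horizontal axis, bars for the SE) of the 16 gene rows named for both regions (vertical axis), in wild (circles) and domesticated fish (squares), for telencephalon and midbrain. DIO2 lies at 1.80 and 1.92 in telencephalon of wild and domesticated fish, whereas cyp3c1 lies at 1.26 and -0.09.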

How the data were processed

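Each array measured the total RNA of a single brain sample in 1 colour (Cy3) on the NimbleGen platform, per the labels' protocols. The authors deposited 1 table of log2 values, 15649 rows by 31 arrays, made with RMA on the zebrafish build Zv9 per the submitters' processing notes; the log2 scale was read from the values, which ran from 3.5 to 15.48. The 1 row without a gene (0.00639%) was left out. Array medians were 9.57 to 9.74, and no array was rescaled. The labels name no batches or dissection borders and do not say whether both regions came from 1 fish.

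limma 3.58.1 in R 4.3.3 fitted sex with population as a covariate to the 8 wild arrays of each region, with Benjamini-Hochberg adjustment over 15648 genes and a threshold of 0.05. The same fit served the domesticated arrays, and interaction terms tested regions, populations and origins. The scripts were tested on simulated data. Genes were named by smallest p among those with a usable symbol, the same sign in both populations: 12 in each direction and region, 8 in each direction over both regions by the smaller of their 2 moderated t values, genes of interest for sex, up to 4 members of each list, and up to 5 genes in each direction past the threshold of an interaction test. The comparison and all lists were chosen with earlier results of these data known. Some items are not reported here. Chromosomes come from the RefSeq table of GRCz12tu by symbol. Alternatives covered scaling, dim genes, array weights, replicate blocks and left-out arrays.

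Arrays with the same number in both regions may share a fish. The correlation of their deviations was 0.439, 0.396, 0.363 and -0.097 over the 4 groups of sex and population, negative only in Nadia males. The labels do not state pairing, and the main fits did not pair the numbers. Fits with the number as a replicate block are given below.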

Additional observations from a re-analysis of the deposited data

Results flagged for a closer look

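One array stood far from the other 3 of its group in 6 of 170 groups of 4 wild arrays tested over the named genes (3.53%), where chance gives about 1 in 20. The measure is the gap to the nearest array over the range of the group, set against Dixon's critical value for 4 samples. RBP2 in midbrain of Nadia male 98 gave 0.978, its value being 6.87 against 7.67 to 7.68 in the other males. ESR1 in midbrain of Nadia female 130 gave 0.971, at 9.45 against 8.74 to 8.76 in the other females. In telencephalon of Pargana male 140, ESR1 gave 0.899, at 7.51 against 9.50 to 9.73, and CYP19A1 gave 0.885. myhb in telencephalon of Nadia female 130 gave 0.924, at 6.49 against 6.76 to 6.78. glipr1b in telencephalon of Nadia female 7 gave 0.903, at 11.48 against 10.87 to 10.93.

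The sex difference differed between the wild populations by limma's interaction test for 5 genes. Nadia minus Pargana was 7.03 in telencephalon and 6.67 in midbrain for UBE2G1, where the 2 Pargana males were low. It was 5.14 and 5.64 for ppt2a.1 and 5.84 in midbrain for ppt2a.5, where the 2 Pargana females were high. It was -3.93 in telencephalon for DPT, where the 2 Nadia females were high, and -3.20 in midbrain for zgc:154125, where the 2 Nadia males were low and the adjusted p of 0.0399 became 0.0928 with trend and robust moderation.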

How the results depend on the processing

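With 4 arrays a sex and no probe-level signal over background in hand, differences near the median standard error could not be detected. Much larger ones also missed the threshold, such as DIO2 in telencephalon at 1.80 (SE 0.36, adjusted p = 0.799 in limma). The lack of calls therefore does not show that large sex differences were absent. One fit over all 31 arrays gave 1 gene in telencephalon, cyp3c1 at 1.26 (adjusted p = 0.0289), and 1 gene for wild minus domesticated, taar12h at 2.504 (adjusted p = 0.0172). Pargana alone gave 1 gene in midbrain, UBE2G1 at -6.51 (adjusted p = 0.0135). Leaving out each array in turn gave 0 genes each time in telencephalon and 0 to 1 in midbrain, the 1 being ENSDARG00000095009 without Pargana female 13 (3.55, adjusted p = 0.0323). Without the dimmest genes (a mean under 7.02, 11736 kept) the Nadia against Pargana test gave 1 gene in telencephalon and 2 in midbrain. The mean was taken over the wild arrays, so the filter can remove genes that are high in 1 group only. DPT was removed in this way. The lower counts therefore need not mean that calls were lost on retesting. In limma zgc:154125 (-3.20) had an adjusted p of 0.0928 with trend and robust moderation. The test between populations was not rerun without single arrays. With quantile scaling the 937 telencephalon genes with an unadjusted p under 0.05 were 477 higher in males and 460 in females, and Nadia alone gave 1786 in telencephalon and 642 in midbrain. With the number as a replicate block (duplicateCorrelation, 0.182) 0 genes passed in telencephalon and 0 in midbrain (lowest adjusted p = 0.287 and 1), and 0 for the difference between regions with a fixed replicate block (lowest adjusted p = 0.381). Same-numbered arrays correlated best with each other except in Nadia males. That rests on 1 correlation per group of sex and population, not 1 per array, and does not settle the pairing. Signs turned for hormone genes in telencephalon with array weights (ESR1 0.04), with Nadia alone (ESR1 0.41, amh -0.11, ESR2 ENSDARG00000016454 0.13), with Pargana alone (ESR2 ENSDARG00000034181 -0.001), with averaged rows (ESR2 ENSDARG00000034181 -0.013) and with the diencephalic covariate, chosen after seeing the data (ESR2 ENSDARG00000034181 -0.53). In midbrain they turned with Pargana alone (ESR1 0.007, ESR2 ENSDARG00000034181 -0.007, CYP19A1 0.30) and with averaged rows (ESR2 ENSDARG00000016454 0.013). In both regions the 2 ESR2 rows had opposite signs, so averaging them had to turn 1 of them. Without single arrays the telencephalon ranges were -0.568 to 0.28 (ESR1), -0.219 to 0.33 (amh), -0.498 to 0.356 (ESR2 ENSDARG00000016454) and -0.181 to 0.408 (ESR2 ENSDARG00000034181), and the midbrain ranges -0.214 to 0.062 (ESR1), -0.089 to 0.161 (DMRT1), -0.215 to 0.005 (amh) and -0.371 to 0.139 (CYP19A1). Each of 90 gene results was set against its value under other settings (930 pairs of result and setting) or without single arrays (664 pairs). Of these pairs 1567 kept direction and side of the threshold, 25 turned sign, 1 gained a call and 1 lost one. The causes were not tested. This tally does not measure robustness. Most of these results were chosen by small p. No male-minus-female result had passed, so for these keeping the side mostly meant staying uncalled. The Nadia minus Pargana results in the tally had passed. Genes chosen for the same sign in both populations could not turn with Nadia or Pargana alone.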
